A study of Capsicum annuum with 4 samples.

Results

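In Chiltepin (CH, Capsicum annuum var. glabriusculum), a wild pepper, 217 of the 35884 gene models were abundant in the green fruit and much lower, but still counted, in the mature fruit. A gene was taken into this set when it reached at least 300 counts per 1000000 counts on genes (CPM) in both libraries at 20 days after anthesis (DAA), when its mean CPM at 20 DAA was at least 4 times the mean at 68 DAA, and when it had more than 3 counts in at least 1 library at 68 DAA. The measured levels themselves chose the members, so their decrease is a description and was not tested as a finding. Of the 428 genes at or above 300 CPM in both green libraries, 222 met the 4-fold limit. Of these, 4 had at most 3 counts in both mature libraries and were not members. A further 1 was left out because S3 Table of the study lists it: TomloxC (CA.PGAv.1.6.scaffold649.19), a lipoxygenase gene, with 1654 and 1917 CPM at 20 DAA and 2.47 and 2.105 CPM at 68 DAA. Of the other abundant genes, 201 stayed within 4-fold between the stages and are called steady here, and 5 rose at least 4-fold.

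The study followed fruit development in untreated greenhouse plants, with 2 libraries of whole fruits at 20 DAA (CH 20DAA) and 2 at 68 DAA (CH 68DAA). Each library held the combined RNA of 6 whole fruits, with pericarp, placenta and seeds together, and the replicates came from separate collections of fruits. A green pepper fruit is still building tissue and is photosynthetic, while a mature fruit has lost its chlorophyll, has made carotenoid pigments and is softening. RNA-Seq counts describe how the mRNA pool is divided among genes: a gene takes a smaller share when its transcripts decline, and also when transcripts of other genes accumulate. Because whole fruits were sequenced, fewer cells of a type and less RNA per cell cannot be told apart. The deposited gene models carry identifiers without names, and functional annotations of these genes were not used here, so no role is given to the members. Coordinates are those of the deposited gene models, on the PGAv.1.6 sequences of cv. CM334.

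At 20 DAA the gene totals of the libraries were 24771773 and 21370765 counts, and at 68 DAA they were 12139415 and 26130664. The first mature library was thus the shallowest, and the lowest counts are least precise there. Genes known from fruit ripening followed the stage labels. SGR1 (CA.PGAv.1.6.scaffold981.58), which acts in chlorophyll breakdown, had 16.8 and 21.5 CPM at 20 DAA and 3679 and 4357 CPM at 68 DAA. PSY1 (CA.PGAv.1.6.scaffold404.3), a phytoene synthase of the carotenoid pathway, had 17.3 and 18.5 CPM against 966 and 1318 CPM. GLK2 (CA.PGAv.1.6.scaffold782.26), a regulator of fruit chloroplast development in tomato, had 139 and 159 CPM against 0.330 and 0.191 CPM.

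The 217 members made up 0.605% of the gene models but held a far larger share of the green fruit's counts on genes. It was 20.9% in the first library at 20 DAA and 21.1% in the second. In the mature fruit it was 1.02% and 1.01%. The mean share was therefore 21.0% ± 0.169 (SD, n = 2) at 20 DAA and 1.01% ± 0.00603 (SD, n = 2) at 68 DAA, a 20.7-fold difference in which the libraries of each stage lay close together. With counts divided by coding length, so that long genes do not weigh more, the share was 23.6% ± 0.190 at 20 DAA and 1.01% ± 0.0278 at 68 DAA (SD, n = 2).

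The comparison genes here were chosen on the same stage means as the members. Their contrast with the members was therefore fixed by the limits, and only the sizes of the shares are described. The 201 steady genes held 12.8% ± 0.0339 (SD, n = 2) of the pool at 20 DAA and 10.5% ± 0.112 (SD, n = 2) at 68 DAA. In the opposite direction, 186 genes had at least 300 CPM in both mature libraries and at least 4 times the green fruit mean. These raised genes held 0.897% and 0.919% of the counts at 20 DAA, and 29.4% and 33.3% at 68 DAA. The members' share fell by 19.99 percentage points while the share of the raised genes grew by 30.5 points. CPM is relative, so a growing share of some genes lowers the CPM of all others. After TMM normalization, which scales the libraries to the bulk of the genes, the median log2 change from 20 to 68 DAA was -4.66 over the members, -0.49 over the steady genes and -0.06 over all 17160 tested genes. With total counts as the only scaling, the median over all tested genes shifted to -0.31 and that over the members to -4.91.

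**Figure D1:**
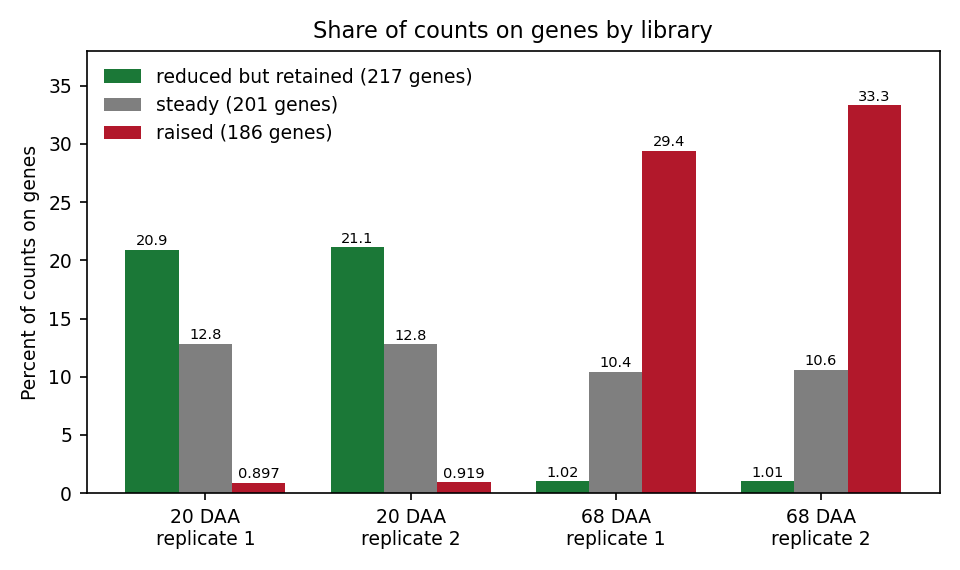
Bars give the percent of counts on genes (y axis) held in each of the 4 libraries (x axis) by the 217 reduced but retained genes, the 201 steady genes and the 186 raised genes. The reduced genes went from 20.9% and 21.1% at 20 DAA to 1.02% and 1.01% at 68 DAA.

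In edgeR's quasi-likelihood test with Benjamini-Hochberg adjustment, 18.8% of the 17160 tested genes were called lower at 68 DAA (adjusted p under 0.01 and at least 4-fold), and 200 of the 217 members were among them. The rule used this contrast, so nothing is read from that count. The 17 members that were not called had folds of stage means between 4.17 and 4.67, close to the limit, and the TMM factors (0.870 to 1.098) brought them under 4-fold. At the same adjusted p without a fold limit, all 217 members were lower, against 32.3% of the tested genes. Both green libraries lay above both mature libraries in CPM for all 217 members, and for 53.1% of the tested genes.

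The rule chose genes high at 20 DAA and lower at 68 DAA, so their places in the ranked lists are a description. Members were 217 of the 428 genes at or above 300 CPM in both green libraries. Of the 10 genes with the highest mean CPM at 20 DAA, 8 were members, as were 37 of the highest 50 and 64 of the highest 100. None of the 100 highest genes at 68 DAA was a member, and 5 were among the highest 500. Within the set, the pool was uneven. The 3 highest members held 13.5% of the members' CPM at 20 DAA, the highest 10 held 26.1%, the highest 50 held 58.3% and the highest 100 held 76.2%. The 10 highest members at 20 DAA and the 10 highest at 68 DAA shared 1 gene, and the lists of 50 shared 15. Over all members, Pearson's r of log2 mean CPM between the stages was 0.02. It was 0.71 within the 69 members at least 256-fold lower and 0.38 within the other 148. A split on the ratio of the 2 levels itself favours a positive r, so no conclusion is drawn from the values within the groups.

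How much was retained differed widely among the members. The fold of stage means ran from 4.17 to 3968, with a median of 30.1 and quartiles of 7.89 and 629. In percent of the green fruit level, the level left at 68 DAA ran from 0.0252% to 24.0%, with a median of 3.32%. The folds were not spread around a single peak. Counted in steps of 1 on the log2 scale from 2 upward, the numbers of members were 56, 32, 22, 14, 14, 10 and 10, and then rose again to 19, 29 and 11. The lowest numbers fell between 128-fold and 512-fold.

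**Figure D2:**
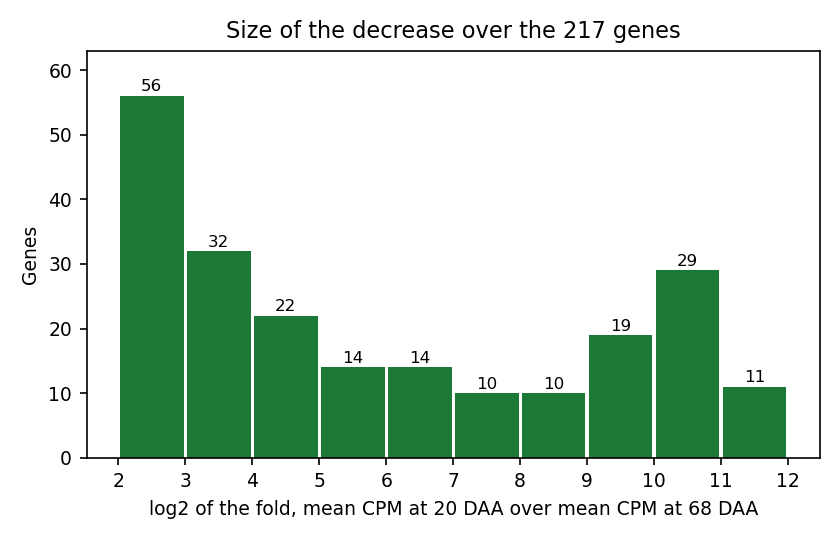
Bars count the 217 genes (y axis) by the log2 of the fold between mean CPM at 20 DAA and mean CPM at 68 DAA (x axis, steps of 1). The numbers fall from 56 genes in the first step to 10 genes in the steps from 7 to 9 and rise again to 29 genes in the step from 10 to 11.

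Of the members, 88 (40.6%) were between 4-fold and 16-fold lower at 68 DAA. They held 27.3% of the members' CPM at 20 DAA and 82.8% at 68 DAA, so most of what the set kept in the mature fruit belonged to them. Their counts at 68 DAA ran from 199 to 5908 in the first library and from 558 to 14975 in the second. A further 36 members were between 16-fold and 64-fold lower, and 24 between 64-fold and 256-fold lower.

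The remaining 69 members were at least 256-fold lower, and for these the word retained rests on traces. Their level at 68 DAA was between 0.0252% and 0.349% of the green fruit level, with a median of 0.0854%. The 40 members at least 1024-fold lower held 32.1% of the members' CPM at 20 DAA and 0.411% at 68 DAA. Their median count at 68 DAA was 7.5 in the first library and 14 in the second. Over all members, 43 had a mean under 1 CPM at 68 DAA, 78 a mean under 5 CPM, and 30 a mean of at least 100 CPM. More than 3 counts were present in both mature libraries for 211 members and in 1 of them for 6 members, and no member had a count of 0 in either. Without the 69 members, a split chosen after the folds were seen, the set held 11.6% of the pool at 20 DAA and 1.01% at 68 DAA, and its median level at 68 DAA was 50.4 CPM in place of 18.1 CPM.

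Traces at the low stage were also counted for genes that changed in the other direction. Of the 186 raised genes, 20 had at most 3 counts in both green libraries and 4 of them had none at all, against 4 of the 222 genes that met the CPM and fold limits and had at most 3 counts in both mature libraries. Of the raised genes, 62 of the 66 that were at least 256-fold higher at 68 DAA or at 0 in both green libraries still had a count at 20 DAA.

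**Figure D3:**
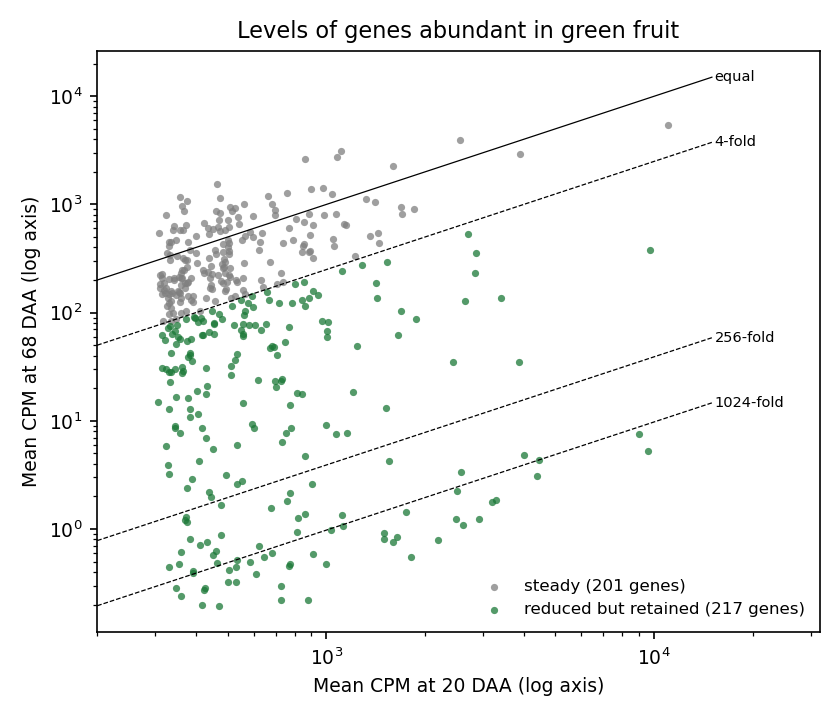
Points show mean CPM at 20 DAA (x axis, log scale) against mean CPM at 68 DAA (y axis, log scale) for the 217 reduced but retained genes and the 201 steady genes, with lines at equal levels and at 4-fold, 256-fold and 1024-fold reduction. The 69 reduced genes under the 256-fold line lie at a mean of 7.55 CPM or lower at 68 DAA, and the other 148 lie between the 4-fold and 256-fold lines.

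The 6 members with the highest CPM at 20 DAA were also the genes ranked 2 to 7 of all genes in that stage, and 5 of them were among the strongly reduced. The exception was CA.PGAv.1.6.scaffold504.18, a gene model of 1 exon with 543 coding bases on the minus strand of unplaced scaffold504 (376334 to 376876). It had 8661 and 10819 CPM at 20 DAA and 296 and 461 CPM at 68 DAA, a 25.7-fold difference between the stage means. It was the only member among the 10 highest at both stages, and per coding length it also ranked 2 of all genes at 20 DAA.

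CA.PGAv.1.6.scaffold787.15 lies on chromosome 5 (6283880 to 6285094, minus strand) and has 1 exon of 1215 coding bases. It had 8963 and 10181 CPM at 20 DAA and 6.84 and 3.71 CPM at 68 DAA, from 83 and 97 counts, which is 1815-fold lower. CA.PGAv.1.6.scaffold883.1, on chromosome 2 (115006926 to 115007684, plus strand), also has 1 exon, of 759 bases. It had 8099 and 9880 CPM in the green fruit and 10.05 and 5.05 CPM in the mature fruit, 1191-fold lower. These genes thus left between 83 and 132 counts per library at maturity.

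The other 3 had 2 or 3 exons and between 2.76 and 5.20 CPM in the mature libraries. CA.PGAv.1.6.scaffold584.65 on chromosome 7 (3596988 to 3597682, plus strand, 2 exons) had 3565 and 5324 CPM at 20 DAA and 4.53 and 4.21 CPM at 68 DAA. CA.PGAv.1.6.scaffold322.125 on unplaced scaffold322 (2406493 to 2408136, minus strand, 2 exons) had 4457 and 4350 CPM against 3.38 and 2.76 CPM. CA.PGAv.1.6.scaffold584.32 on chromosome 7 (2794960 to 2796430, minus strand, 3 exons) had 3588 and 4405 CPM against 4.53 and 5.20 CPM. Per coding length the order changed, and these ranked 3, 20 and 13 of all genes at 20 DAA.

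Of the 4 members with the highest CPM at 68 DAA, 3 were reduced between 5.11-fold and 8.15-fold. CA.PGAv.1.6.scaffold128.147 on chromosome 10 (227094755 to 227098158, minus strand) has 11 exons and 2340 coding bases. It had 2995 and 2422 CPM at 20 DAA and 487 and 573 CPM at 68 DAA, so 19.6% of the green fruit level was left. CA.PGAv.1.6.scaffold223.5 on chromosome 1 (232139559 to 232141571, minus strand, 4 exons) had 2789 and 2950 CPM against 350 and 355 CPM, with 12.3% left. These were the 2 members with at least 300 CPM in both mature libraries. The mature replicates of CA.PGAv.1.6.scaffold223.5 lay closer together (0.18 in log2 after TMM scaling) than those of CA.PGAv.1.6.scaffold128.147 (0.39). CA.PGAv.1.6.scaffold1715.10 on unplaced scaffold1715 (188184 to 191745, plus strand, 13 exons) had 1621 and 1431 CPM at 20 DAA and 313 and 273 CPM at 68 DAA. The fourth was CA.PGAv.1.6.scaffold504.18, described above, whose 25.7-fold reduction lay near the median of the members.

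At the other end, 4 members kept the lowest share of their green fruit level. CA.PGAv.1.6.scaffold749.6 on chromosome 3 (18490972 to 18493485, minus strand, 2 exons) had 1119 and 644 CPM at 20 DAA. At 68 DAA it had 4 and 3 counts, or 0.330 and 0.115 CPM, so that 0.0252% was left. CA.PGAv.1.6.scaffold1149.2 on unplaced scaffold1149 (104999 to 116646, plus strand, 10 exons) had 709 and 742 CPM at 20 DAA and the same 4 and 3 counts at 68 DAA. These counts are at the limit of the rule and cannot be told from values just under it. CA.PGAv.1.6.scaffold588.28 on unplaced scaffold588 (246667 to 248464, plus strand, 3 exons) had 2272 and 1341 CPM against 0.577 and 0.536 CPM, from 7 and 14 counts. CA.PGAv.1.6.scaffold33.21 on chromosome 7 (110587725 to 110591304, plus strand, 11 exons) had 2062 and 2320 CPM against 0.659 and 0.918 CPM, from 8 and 24 counts.

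**Figure D4:**
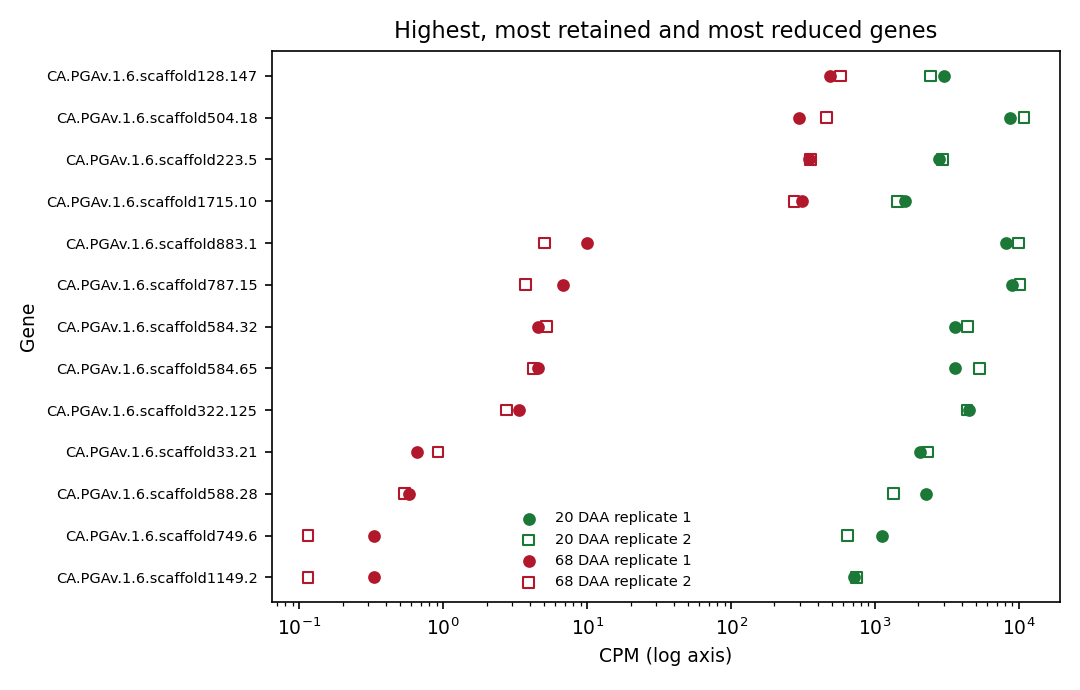
Each line of points gives the CPM (x axis, log scale) of 1 gene (y axis) in the 4 libraries, green for 20 DAA and red for 68 DAA, filled circles for the first replicate and open squares for the second. The genes are the members with the highest CPM at 20 DAA, the highest CPM at 68 DAA and the lowest share left, sorted by mean CPM at 68 DAA, which runs from 0.222 to 530 CPM.

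Genes just inside and just outside the limits had nearly the same values. At the limit of 300 CPM, CA.PGAv.1.6.scaffold154.14 (415 and 303 CPM at 20 DAA) and CA.PGAv.1.6.scaffold186.32 (307 and 304 CPM) were inside. CA.PGAv.1.6.scaffold174.3 (304 and 297 CPM) and CA.PGAv.1.6.scaffold1480.8 (323 and 296 CPM) were outside. At the 4-fold limit, CA.PGAv.1.6.scaffold786.10 (4.17-fold) and CA.PGAv.1.6.scaffold497.74 (4.19-fold) were the nearest members. The nearest genes outside, CA.PGAv.1.6.scaffold660.37 and CA.PGAv.1.6.scaffold1003.12, both had a fold just under 4, with means of 347 and 411 CPM at 20 DAA against 86.8 and 103 CPM at 68 DAA. At the limit on counts in the mature fruit, CA.PGAv.1.6.scaffold1149.2 and CA.PGAv.1.6.scaffold732.19 were members with a highest count of 4. CA.PGAv.1.6.scaffold899.28 with 3 and 1 counts and CA.PGAv.1.6.scaffold771.74 with 1 and 2 counts were not. The 3 limits thus cut through continuous values, and the first mature library reached fewer counts for the same CPM than the second.

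The replicates were closer at 20 DAA than at 68 DAA, for the members and for all tested genes. Over all tested genes, the median absolute log2 difference was 0.13 at 20 DAA and 0.23 at 68 DAA. At 20 DAA, 1.46% of the tested genes differed more than 2-fold. The rule set a limit of 300 CPM in both green libraries but a count limit in only 1 mature library, which favours agreement at 20 DAA. At 20 DAA, the median absolute log2 difference between the libraries over the members was 0.16 after TMM scaling, and 1 member differed more than 2-fold: CA.PGAv.1.6.scaffold569.34, with 1497 and 757 CPM. At 68 DAA, the median absolute log2 difference was 0.39. More than 2-fold apart were 32 members (14.7%), against 2 of the 201 steady genes (0.995%) and 5.31% of all tested genes. All these differences come from the same 2 libraries, so the percentages do not show how other replicates would vary. Of the 69 members at least 256-fold lower, 19 (27.5%) differed more than 2-fold between the mature libraries, and of the other 148, 13 (8.78%) did. The members at 68 DAA also have lower counts than the steady genes, and the part that counting error takes in these differences was not tested. Over the 69 members at least 256-fold lower, the median absolute log2 difference was 0.19 at 20 DAA and 0.63 at 68 DAA. As a set, their replicates were thus closer at 20 DAA, but not in every gene. For CA.PGAv.1.6.scaffold588.28 the log2 ratio of the second to the first library was -0.79 at 20 DAA and 0.05 at 68 DAA.

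The gene models describe the coding part alone: in all 35884 models the exons equalled the coding segments, so no untranslated regions were included. The coding length of every model was a multiple of 3. The members tended to have few exons. Their median was 3 coding exons (95% interval of the median 3 to 4), against 5 (5 to 6) in the steady genes and 5 in all tested genes. Of the members, 110 (50.7%) had 1 to 3 exons, against 66 steady genes (32.8%) and 39.4% of the tested genes. Against the steady and tested genes, the difference lay mainly in models of 2 exons, which were 50 members (23.0%), 25 steady genes (12.4%) and 12.8% of the tested genes, but 18.3% of the raised genes and 19.0% of all gene models. Models of 5 and 6 exons were fewer, with 20 members against 44 steady genes, but the other sets lay between these. Models of 5 exons were 5.07% of the members and 11.9% of the steady genes. They were 9.68% of the raised genes, 8.50% of the tested genes and 7.11% of all gene models. Models of 6 exons were 4.15% of the members and 9.95% of the steady genes, against 5.38%, 7.12% and 5.51% of those sets. At the ends the sets were alike in share: 29 members (13.4%) had 1 exon against 11.9% of the steady and 15.9% of the tested genes, and 47 members (21.7%) had 10 or more against 21.9% and 19.8%. All gene models together, which include many that had few or no counts, also had a median of 3 exons, and 56.1% of them had 1 to 3. The raised genes, abundant in the mature fruit, had a median of 3.5 exons, and 93 of the 186 had 1 to 3, so a share near this size was not particular to the members.

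**Figure D5:**
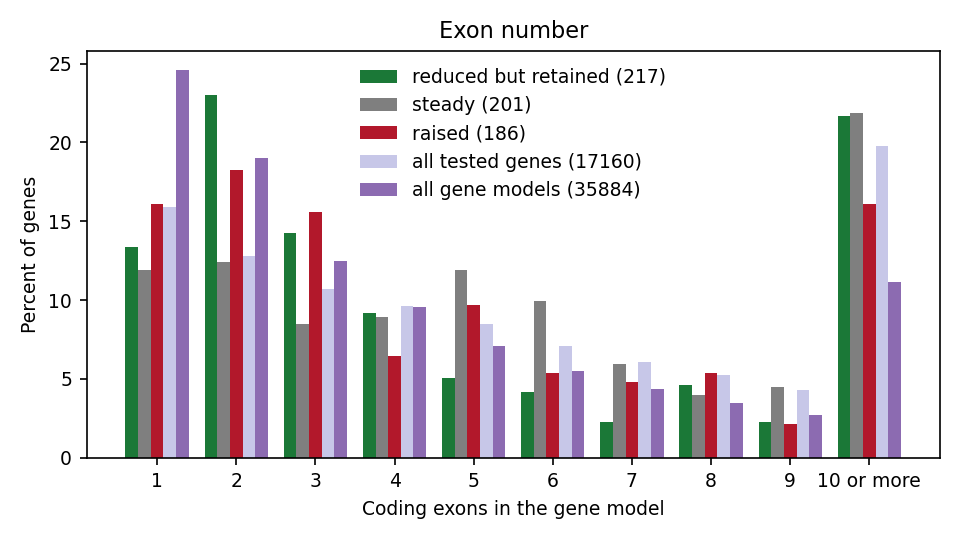
Bars give the percent of genes (y axis) by the number of coding exons in the gene model (x axis, with 10 or more joined) for the 217 reduced but retained genes, the 201 steady genes, the 186 raised genes, the 17160 tested genes and all 35884 gene models. Models of 2 exons make up 23.0% of the reduced genes, against 12.4%, 18.3%, 12.8% and 19.0% of the others.

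The exon number also differed along the size of the decrease. The 88 members between 4-fold and 16-fold lower had a median of 5 exons, as the steady genes did. The medians were 3, 2.5, 3 and 2.5 exons in the members 16-fold to 64-fold, 64-fold to 256-fold, 256-fold to 1024-fold and at least 1024-fold lower. Over all members, Spearman's rho between fold and exon number was -0.27, and between mean CPM at 20 DAA and exon number -0.22, given as descriptions across genes. The members with 1 exon included the 3 with the highest CPM at 20 DAA. The longest exon chains were in CA.PGAv.1.6.scaffold1236.9 on chromosome 1 (66467976 to 66489187, minus strand) with 42 exons and in CA.PGAv.1.6.scaffold1030.33 on unplaced scaffold1030 (772033 to 781809, plus strand) with 25 exons. The first had 340 and 320 CPM at 20 DAA and 11.9 and 13.6 CPM at 68 DAA, and the second had 413 and 407 CPM against 4.86 and 3.71 CPM.

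The coding length of the members lay close to that of other expressed genes. Its median was 1137 bases (95% interval 1032 to 1218), against 1158 (999 to 1284) in the steady genes and 1140 in the tested genes. The genomic span from the start of the coding part to its end had a median of 2700 bases (2378 to 3258). It was 3392 (2989 to 3894) in the steady genes and 3902 in the tested genes. The median of summed intron length was 1484 bases against 2119 and 2610. The raised genes had medians near those of the members, with 2764 bases of span and 1534.5 bases of introns. Over all gene models these medians were 2376 and 1193 bases, so short spans and introns were not particular to the members. CPM is not divided by length, so the limit of 300 CPM favours long genes. Chosen on counts per coding length instead, 181 genes met the rule, 147 of them members, and their median coding length was 744 bases. The median exon number of these 181 was again 3. The plus strand held 102 members (47.0%), and 22 members (10.1%) were on scaffolds not placed on a chromosome, against 10.5% of the tested genes.

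Each gene model names the evidence track it came from. The members' tracks differed from those of all models, and in part from those of the tested genes. The ISGAP track gave 164 members (75.6%), against 64.7% of the steady genes, 74.5% of the tested genes and 44.9% of all models. The UNIPROT track gave 38 members (17.5%), against 24.9% of the steady genes, 16.1% of the raised genes and 2.58% of the tested genes. The ABINITIO track gave 3 members (1.38%), against 4.48% of the steady genes and 3.76% of the raised genes. It gave 8.01% of the tested genes and 21.0% of all models. The UNIPROT share was thus high, and the ABINITIO share low, in all 3 sets of abundant genes and not in the members alone.

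Members were found on all 12 chromosomes and were mostly scattered. Chromosome 3 held the most, 31 members. Per 1000 tested genes, chromosome 10 held 17.6 members, chromosome 5 held 16.4 and chromosome 3 held 15.1, while chromosome 11 held 7.66 and chromosome 9 held 9.07. The steady genes were spread differently, with 20.2 per 1000 tested genes on chromosome 9 and 7.25 on chromosome 10. These counts are small (8 to 31 members a chromosome), and the differences between chromosomes were not tested.

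Another member was the next gene model for 9 members (4.15%), in 4 runs. For the steady genes it was 12 (5.97%) in 6 runs, and for the raised genes 9 (4.84%) in 4 runs. The share for genes drawn without regard to their level was not computed, so these values do not show whether adjacency is rare or common. Within 50 kb of another member lay 11 members (5.07%), against 17 steady genes (8.46%) and 17 raised genes (9.14%) near another of their own set. The longest run was 3 genes on unplaced scaffold523, whose members fell by very different amounts. CA.PGAv.1.6.scaffold523.25 (465687 to 465992, 1 exon) had 626 and 541 CPM at 20 DAA and 0.412 and 0.574 CPM at 68 DAA. CA.PGAv.1.6.scaffold523.26 (467954 to 469192, 1 exon) had 390 and 444 CPM against 11.2 and 5.82 CPM. CA.PGAv.1.6.scaffold523.27 (503637 to 506393, 5 exons) had 496 and 538 CPM against 126 and 103 CPM. Their folds were 1184, 49.0 and 4.52, so these neighbours kept 0.0845%, 2.04% and 22.1% of their green fruit level.

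The other runs were pairs with more similar folds. On chromosome 7, CA.PGAv.1.6.scaffold584.33 (2807356 to 2809891, plus strand, 3 exons) lay next to CA.PGAv.1.6.scaffold584.32, one of the 6 highest members, on the opposite strand and 10925 bases away. It had 2457 and 2675 CPM at 20 DAA and 3.54 and 3.25 CPM at 68 DAA, and the folds of the pair were 755 and 821. On chromosome 10, CA.PGAv.1.6.scaffold509.12 (189545344 to 189549036, 2 exons) had 594 and 564 CPM against 35.1 and 118.7 CPM, so its mature libraries differed more than 3-fold. Its neighbour CA.PGAv.1.6.scaffold509.13 (189688340 to 189694369, 12 exons) had 365 and 325 CPM against 71.7 and 62.3 CPM.

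Some members have coding exons of the same lengths, a structure shared by copies of a gene. Within the set, 6 members in 3 pairs had identical lengths of all coding exons (3.19% of the 188 members with 2 or more exons), against 8 steady genes (4.52%). Counting all gene models, 21 of the 188 (11.2%) shared their exon lengths with some other model, against 5.63% of all models with 2 or more exons. This share was not computed for the steady, raised or tested genes, so it is not shown to be particular to the members. Reads that fit near-identical copies equally well were not counted for any gene, and such reads were between 3.07% and 5.22% of all entries, so the values of such copies are uncertain. Sequences were not used here, and equal exon lengths alone do not show that models are copies.

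The pair with the highest levels was CA.PGAv.1.6.scaffold584.65, described above, and CA.PGAv.1.6.scaffold584.67 (3744175 to 3744808, minus strand), both on chromosome 7 with exons of 64 and 257 bases. The second had 1061 and 761 CPM at 20 DAA and 0.906 and 0.268 CPM at 68 DAA. Their folds were 1017 and 1552. The same exon lengths occurred in 3 more models, all on chromosome 7. Of these, CA.PGAv.1.6.scaffold1084.27 had 291 and 232 CPM at 20 DAA, under the CPM limit in both libraries, and 2 counts in each mature library. CA.PGAv.1.6.scaffold1610.5 had 37.3 and 33.8 CPM against 0.577 and 0.727 CPM. CA.PGAv.1.6.scaffold584.64 had no count in any library. As reads that fit several copies were not counted, a count of 0 sets no limit on its level. Of the 4 models with counts, the 2 members were lower in the mature fruit by the rule. The other 2 were also lower, from very different green fruit levels. Both green libraries lay above both mature libraries for 53.1% of the tested genes, so this direction was common.

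In the second pair, CA.PGAv.1.6.scaffold128.86 (228578142 to 228580519) and CA.PGAv.1.6.scaffold351.9 (91188549 to 91190649), both on chromosome 10, had exons of 394, 270 and 680 bases. The first had 1418 and 1058 CPM at 20 DAA and 58.2 and 41.0 CPM at 68 DAA, and the second had 690 and 630 CPM against 170 and 142 CPM. The lower of the pair in the green fruit was therefore the higher in the mature fruit, in every library, with folds of 24.97 and 4.23. As both have 1344 coding bases, this order holds per length as well. The same exon lengths occurred in 1 more model, CA.PGAv.1.6.scaffold307.3 on chromosome 3. It had 205 and 191 CPM at 20 DAA, under the CPM limit in both libraries, and 10.05 and 11.3 CPM at 68 DAA. In the third pair, on chromosome 6 and next to each other, CA.PGAv.1.6.scaffold874.74 (239456836 to 239459898) and CA.PGAv.1.6.scaffold874.75 (239467616 to 239470857) had exons of 785, 134 and 599 bases. The first had 441 and 436 CPM against 54.4 and 77.2 CPM, and the second had 350 and 317 CPM against 83.9 and 66.9 CPM. At 20 DAA the first was the higher in both libraries, whereas at 68 DAA the order differed between the libraries.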

How the data were processed

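Per the submitters' processing notes, reads were trimmed (Trimmomatic 0.36), aligned (HISAT2 2.1.0) and counted (HTSeq 0.11.0). The authors deposited the resulting counts without normalization and gene models of CM334, whose sequences and gene identifiers carry the name PGAv.1.6. The methods name the annotation as version 2.0. The methods name CM334 as the reference and the results name Zunla-1. Whether counting used strand is not given in the sources used here. The 5 HTSeq entries that name no gene (31.7% to 38.2% of each library) were left out of totals and tests. CPM is the count times 1000000 over the counts on genes. Libraries of Serrano, the cultivated pepper, were not analysed here.

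Counts were tested with edgeR 4.0.16 (limma 3.58.1, R 4.3.3) over all genes whose log2 CPM averaged at least 1 after TMM normalization, by the quasi-likelihood test with Benjamini-Hochberg adjustment. A gene was called with an FDR under 0.01 and at least 4-fold change. Log2 differences between replicates used a prior count of 2. The fit was tested on simulated data. With 2 libraries a stage, SDs rest on 2 values. Intervals of medians cover the sampling of genes only. Alternatives were other limits, scalings, filters and tests (DESeq2 1.42.0), a block for the replicate number and each library left out. The rest used pandas 2.3.3 and numpy 2.4.6 in Python 3.11.15, with scipy 1.17.1 for intervals and matplotlib 3.10.9 for figures.

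Members and lists were chosen with earlier results of these data known. Named members are the 6 highest at 20 DAA, the 4 highest at 68 DAA, the 4 with the lowest share left, the 2 nearest each side of each limit, members of runs (up to 8), the 2 with most exons, the 2 highest with 1 exon, and up to 3 groups with the same exon lengths. CA.PGAv.1.6.scaffold569.34 and the models sharing exon lengths with members were named after their values were seen.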

Additional observations from a re-analysis of the deposited data

How the results depend on the processing

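The number of members stayed within 1.5 times of 217 under 12 of 13 alternatives. It was 116 with a limit of 500 CPM. TMM-scaled CPM gave 178 genes, all of them members. With each library left out in turn it ran from 212 to 226. The share of the counts on genes at 20 DAA (21.0%) was 13.4% of all HTSeq entries, 23.6% per coding length, 17.2% without the 10 highest genes of each library, 19.3% after TMM scaling, 20.0% without the highest member, 11.6% without the members at least 256-fold lower, and 20.9% to 21.1% with a library left out. At 68 DAA (1.01%) it was 0.671%, 1.01%, 1.17%, 1.11%, 0.977% and 1.01% under the same settings, and 1.01% to 1.02% with a library left out. Each alternative changes the denominator or the genes summed, and the SD it was set against rests on 2 libraries.

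The median level at 68 DAA (18.1 CPM) was 17.0 to 19.5 CPM with a library left out, 19.6 CPM after TMM scaling and 50.4 CPM without the strongly reduced members. The median log2 change of the members ran from -4.93 to -4.51 over the libraries left out, and other scalings moved it by less than the spread between replicates. The counts of genes lower (3224) and higher (1394) at 68 DAA were 5539 and 4327 without the fold limit and stayed within 1.5 times under the other alternatives, with 2804 to 3553 lower and 1294 to 1449 higher when a library was left out. The members called lower (200) were 193 to 217 throughout. The replicate numbers do not show pairing. Over 17160 genes, the correlation between the log2 replicate difference at 20 DAA and that at 68 DAA was 0.025, from 2 libraries a stage. With the number as a replicate block 3253 genes were lower and 1415 higher. In that fit 201 members were called, with a median log2 change of -4.67.

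Chosen per coding length, the members had a median coding length of 744 bases and a median span of 1725 bases in place of 1137 and 2700. The median coding length of the members minus that of all models was 264 bases, and minus that of the steady and tested genes -21 and -3 bases. For the span these differences were 324, -692 and -1202 bases, and for exon number 0, -2 and -2, so both depend on which genes are compared. Members next to another member were 9, and 17 with at most 1 gene model between. Members with equal exon lengths were 6, and 30 when only exon number and coding length within 3 bases had to agree. The percent of members past 2-fold between replicates at 20 DAA was 0.461%, and 0 of 217 with total counts only. The cause of these shifts was not tested beyond what each setting changes. An exact permutation test on 2 against 2 libraries cannot reach 0.05.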
